A study of Mus musculus with 12 samples.

Results

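Ucp3 encodes uncoupling protein 3, a carrier of the inner mitochondrial membrane found mainly in skeletal muscle and brown fat, and Ucp2 encodes a close relative with a wider tissue distribution. Both belong to the family of Ucp1, which lets protons leak back into the mitochondrial matrix and so releases heat in brown fat. In skeletal muscle Ucp3 is known to be raised by fasting and by high fatty acid supply, and it is a known target of the peroxisome proliferator-activated receptors (PPARs), nuclear receptors that bind fatty acids. The members were all probe sets (groups of short oligonucleotides that measure 1 transcript) with the gene symbol Ucp3 or Ucp2 in the annotation of the array. Ucp3 had 2 probe sets among the 22690 on the array, whose annotation names 12394 genes alone on a probe set. No probe set carried the Ucp2 symbol in that annotation, alone or among several, and it names no gene for 1606 probe sets. Whether one of those measures Ucp2 cannot be read from it, so Ucp2 was not analysed here. Ucp3 was chosen on its differences between these arrays, so its own values are given as a description with intervals and without p-values.

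The 12 arrays held RNA from quadriceps, the large thigh muscle, of C57Bl/6J mice, a common inbred laboratory strain, in 4 groups of 3 arrays. The combination group was exercise-trained and received GW1516, a synthetic agonist of PPARδ, at 5 mg/kg per day for 4 weeks. The GW group was sedentary and received the same dose for the same time. The exercise group was trained and received vehicle, and the vehicle group was sedentary and received vehicle. A duration of 4 weeks is given for these groups too. The labels name no transgene or deletion. Age, sex and the training schedule beyond that duration were not given in the sources used here. Each array held pooled RNA from 3 mice, so the spread between arrays is a spread between pools and understates that between single mice.

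The deposited values were signal intensities, with a trimmed mean between 199.975 and 199.977 on every array, and array medians lay between 48.4 and 57.2. The signals of 27 bacterial control probe sets, which should find nothing in mouse RNA, had a 95th percentile of 23.5, used here as the background. The log2 signals of the 13575 probe sets with the highest means, 60% of those left after control probe sets were removed, were fitted in 1 linear model, and both Ucp3 probe sets were among them. GW arrays 1 and 2 resembled the arrays of other groups slightly more than those of their own. Their mean correlations over the probe sets tested were 0.9508 and 0.9631 with other groups, against 0.9496 and 0.9571 within the GW group. The other 10 arrays correlated better with their own group. All 12 skeletal muscle markers listed had a probe set, and their signals, such as a mean of 19367 for the creatine kinase gene Ckm in vehicle muscle, are high as skeletal muscle requires. Endothelial, fat cell and macrophage markers were also measured above background, so signals come from whole muscle. In such tissue, fewer cells of a type and less RNA per cell cannot be told apart.

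The 2 probe sets are called A, with the higher mean signal, and B here. Both match the same Ucp3 entry and gene identifier (22229), and they share every RNA pool, so they are not replicates of a condition. The Ucp3 gene lies at chr7:100472991-100486432 on the plus strand of GRCm38.p6 in the RefSeq table, and Ucp2 starts 6.9 kb beyond its end. The sequence around the Ucp3 start site is shown because PPARs are known to bind repeats of the letters AGGTCA. It runs from 250 bases before the start to 50 bases from it, at chr7:100472741-100473040, plus strand, 5′ to 3′, from RefSeq. Capitals mark 2 copies of AGGTCA and the CAGCTG that overlaps the second copy.

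Ucp3 promoter: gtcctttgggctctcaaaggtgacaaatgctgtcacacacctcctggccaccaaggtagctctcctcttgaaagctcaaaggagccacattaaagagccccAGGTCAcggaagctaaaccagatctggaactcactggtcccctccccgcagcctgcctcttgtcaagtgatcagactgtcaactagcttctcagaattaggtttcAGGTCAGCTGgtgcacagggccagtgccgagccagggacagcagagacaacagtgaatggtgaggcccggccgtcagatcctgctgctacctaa

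The copies of AGGTCA began 149 and 44 bases before the start site, and both lay on the plus strand. Searched on both strands, AGGTCA occurred at least once in 16.3% of 32851 RefSeq promoters of the same length and at least 2 times in 1.81%. The direct repeat with 1 base between the copies, AGGTCANAGGTCA, occurred 0 times in the Ucp3 window and in 13 of all promoters (0.0396%). The E-box CANNTG, the motif of the muscle regulator MyoD and related factors, occurred 3 times in the window, and 72.3% of promoters held at least 1. One of these, CAGCTG at 40 bases before the start, shares its first bases with the second AGGTCA, and 16.3% of promoters held a CAGCTG. The Ucp2 window held 0 copies of AGGTCA and 2 E-boxes, and had 21 CpG dinucleotides against 5 in the Ucp3 window. These are matches of letters and not sites shown to be bound.

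Ucp3 was well above background on every array and was lowest in vehicle muscle on both probe sets. On probe set A the signals were 1253, 1298 and 1354 on the combination arrays, 1623, 1220 and 1468 on the GW arrays, 1049, 1105 and 953.1 on the exercise arrays, and 722.8, 548.9 and 635.3 on the vehicle arrays. The 3 vehicle arrays were lowest, the 3 exercise arrays lay above them, and all 6 arrays with the drug were above every exercise array. Probe set B gave 1407, 1185 and 1202 on the combination arrays, 1398, 963.3 and 1103 on the GW arrays, 665.1, 747.1 and 705.8 on the exercise arrays, and 438.8, 385.6 and 464.8 on the vehicle arrays. It showed the same order, with the combination and GW arrays overlapping and the other groups apart. In vehicle muscle probe set A stood between the 88.8th and 91.1st percentiles of all probe sets on its array, and in GW muscle between the 94.7th and 96.2nd.

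**Figure D1:**
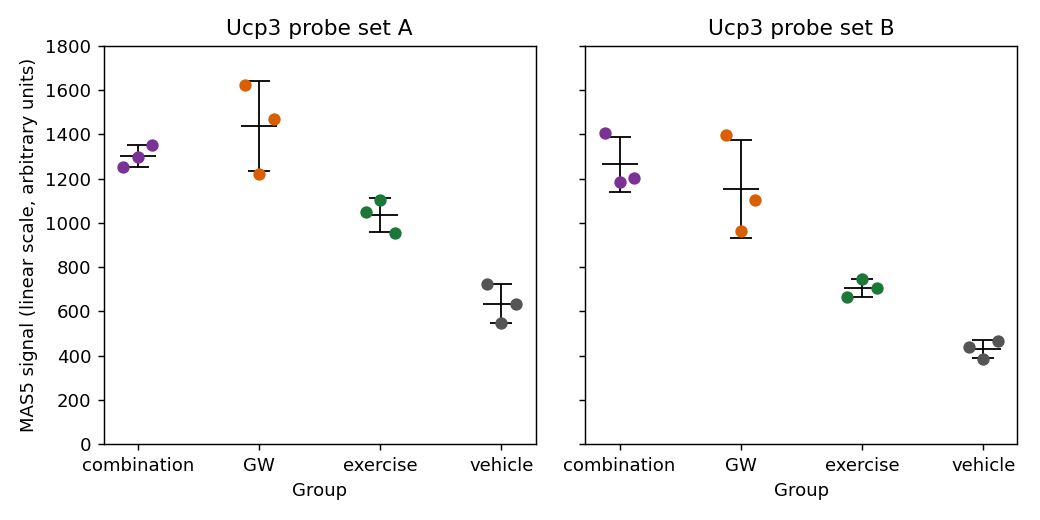
MAS5 signal (linear axis from 0) of Ucp3 probe sets A and B on each of the 12 arrays, by group, with points for arrays and a line with bars for the mean and SD of the 3 arrays. Vehicle arrays lie lowest on both probe sets (549 to 723 on A, 386 to 465 on B), exercise arrays lie above them, and the combination and GW arrays overlap at the top.

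The mean signals of probe set A were 1302 ± 50.6 in the combination group, 1437 ± 203.5 in the GW group, 1036 ± 77.0 in the exercise group and 635.7 ± 86.9 in the vehicle group (SD, n = 3 each). Those of probe set B were 1265 ± 124 in the combination group, 1155 ± 222 in the GW group, 706.0 ± 41.0 in the exercise group and 429.7 ± 40.4 in the vehicle group (SD, n = 3 each). The GW group had the widest spread, with a coefficient of variation of 14.2% on A and 19.2% on B. Within it, array 1 was highest and array 2 lowest on both probe sets. Over the 12 arrays the 2 probe sets had a Pearson r of 0.949 and a Spearman rho of 0.895. After each group's mean was removed, r was 0.649. These correlations describe measurements of 1 gene on shared pools.

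The difference between the probe sets changed with the group. On the log2 scale, B minus A averaged -0.05 ± 0.18 in the combination group, -0.32 ± 0.10 in the GW group, -0.55 ± 0.11 in the exercise group and -0.56 ± 0.14 in the vehicle group (SD, n = 3 each). The 6 drug-treated arrays ranged from -0.41 to 0.17, above the 6 arrays without drug, which ranged from -0.72 to -0.43. B thus stood higher relative to A on the drug-treated arrays, and every fold that compares drug with no drug was larger on B than on A. The 3′ to 5′ signal ratio of beta-actin, a measure of RNA integrity, ranged from 0.803 to 0.841 in the combination group, 0.801 to 0.916 in GW, 0.763 to 0.816 in exercise and 0.838 to 1.10 in vehicle. Its part in the difference between the probe sets was not tested.

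Sedentary mice given GW1516 had more Ucp3 signal than sedentary mice given vehicle. The GW group exceeded vehicle by 1.18 ± 0.12 on the log2 scale on probe set A (SE from the fit), a 2.26-fold difference with a 95% interval of 1.89 to 2.69. Probe set B differed by 1.41 ± 0.13, or 2.66-fold (2.20 to 3.23). The groups did not overlap on either probe set. Over all probe sets tested, 5.54% had every GW array above every vehicle array, and nothing is read from that share for Ucp3, whose choice used this contrast. Ranked by log2 difference among the 13575, A was number 89 and B number 29 from the top. Without GW array 1 the log2 difference was 1.08 on A and 1.27 on B, and without GW array 2 it was 1.29 on A and 1.54 on B. Of the brown fat markers, 6 of 7 had a probe set and 2 of the 6 were at or below background, and their summed signal ran from 10795 to 11585 on the GW arrays, against 9381 to 10588 on the vehicle arrays. Most of that sum was Cox8b, a cytochrome oxidase subunit also made in striated muscle, with means of 10616 in GW and 9453 in vehicle muscle. The defining markers Ucp1 and Cidea averaged 5.71 and 12.9 in GW muscle, against 9.94 and 2.15 in vehicle muscle, all below the background of 23.5. Elovl3 and Dio2, also listed, lay below the filter on signal. The brown fat score is the mean over the markers of their log2 deviation from the mean of all arrays. It was 0.39, -0.622 and -0.241 on the GW arrays and -0.77, -0.776 and -0.172 on the vehicle arrays, which overlap. With group means removed, r between the brown fat score and Ucp3 was 0.45 on A and 0.09 on B over the 12 arrays, and its part in the difference was not tested. Red blood cell markers, 3 of 6 with a probe set and 1 at or below background, summed to 95.3 to 102.5 on the GW arrays and 59.2 to 84.0 on the vehicle arrays, and their part was not tested either. The sums of skeletal muscle, fat cell and macrophage markers overlapped between GW and vehicle.

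The list of PPAR target genes held 28 genes of fatty acid uptake, storage and oxidation other than Ucp3, of which 24 had a probe set with their symbol alone and all 24 were tested. It was chosen with earlier results of these data known. Its counts, medians and p-values in every comparison therefore describe these arrays and are no independent test. In the GW group 5 of the 24 rose and 0 fell, while 0.0958% of all probe sets passed the test (adjusted p under 0.05, limma with Benjamini-Hochberg adjustment). Without GW array 1 the count was 5, without GW array 2 5, and without vehicle array 1 it was 8. The median log2 difference of the list was 0.33, against -0.001 over all probe sets tested. Those that rose were Slc27a1, a fatty acid transporter (1.53, adjusted p = 0.000181), Acadl, the long-chain acyl-CoA dehydrogenase (1.34, adjusted p = 1.74e-05), Mlycd, which removes the fatty acid oxidation inhibitor malonyl-CoA (0.85, adjusted p = 0.000911), Fabp3, the muscle fatty acid binding protein (0.82, adjusted p = 0.00779), and Acaa2, the last enzyme of the beta-oxidation cycle (0.68, adjusted p = 0.00131). Slc27a1 had signals of 341.5, 328.6 and 318.7 in GW muscle, against 95.3, 125.7 and 124.6 in vehicle muscle. Its GW arrays lay close together and far above vehicle. The log2 difference of Pdk4, the kinase that slows carbohydrate oxidation, was 1.24 (adjusted p = 0.074), and that of Angptl4, a secreted lipase inhibitor, was 2.26 (adjusted p = 0.528).

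Trained mice given vehicle also had more Ucp3 signal than sedentary mice given vehicle. The exercise group exceeded vehicle by 0.71 ± 0.12 on the log2 scale on probe set A, or 1.64-fold (95% interval 1.37 to 1.95), and by 0.72 ± 0.13 on B, or 1.65-fold (1.36 to 1.99). Neither probe set overlapped between the groups, and 8.83% of all probe sets had every exercise array above every vehicle array. A ranked 553 and B 529 from the top, so about 4% of probe sets (4.07% for A and 3.89% for B) had a larger log2 difference. The beta-actin 3′ to 5′ ratio given above did not overlap between these groups, at 0.763 to 0.816 in exercise and 0.838 to 1.10 in vehicle, while that of Gapdh overlapped, at 0.896 to 0.94 in exercise and 0.89 to 0.906 in vehicle. Their part in the difference was not tested. Of the PPAR target list 0 of 24 passed, with 0.0147% of all probe sets (2 of 13575) passing by limma and 1417 at an unadjusted p under 0.05. The median log2 difference of the list was 0.16, against 0.01 over all probe sets. At an unadjusted p under 0.05 there were 8 of the 24. The largest log2 difference among them was that of Pdk4, at 0.91 (adjusted p = 0.244).

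Skeletal muscle markers did not overlap between these groups in their sum. It ran from 200101 to 207832 on the exercise arrays, against 167106 to 173589 on the vehicle arrays, with 12 of 12 markers measured and 0 of 12 below the filter. Among them, the oxidative fibre myosin Myh2 averaged 1902 in exercise and 607.9 in vehicle muscle, and myoglobin (Mb) 8678 in exercise and 4223 in vehicle muscle. Removing group means, the marker score and Ucp3 probe set A had an r of 0.765 over the 12 arrays, and the score and B an r of 0.585. With that score in the fit, an alternative chosen after seeing the data, the log2 difference between exercise and vehicle was 0.42 (95% interval 0.13 to 0.72) on A and 0.48 (0.12 to 0.84) on B. The score itself differs between the groups, so their parts cannot be told apart. Macrophage markers, 12 of 12 with a probe set and 2 at or below background, had summed signals of 1194 to 1885 on the exercise arrays and 903.7 to 1602 on the vehicle arrays, which overlap. With group means removed, r between the macrophage score and Ucp3 was 0.677 on A and 0.307 on B, and with this score in the fit the log2 difference between exercise and vehicle was 0.61 on A and 0.67 on B.

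The combination group also exceeded vehicle, and probe sets A and B gave different sizes. On A the log2 difference was 1.04 ± 0.12, or 2.06-fold (95% interval 1.73 to 2.46), and on B it was 1.56 ± 0.13, or 2.94-fold (2.43 to 3.56). The groups did not overlap on either, and 7.94% of all probe sets had every combination array above every vehicle array. All 3 comparisons with vehicle share the same 3 vehicle arrays. Of the marker sums, 3 did not overlap between these groups. Skeletal muscle markers summed to 179967 to 202577 on the combination arrays and 167106 to 173589 on the vehicle arrays. Fat cell markers summed to 8574 to 17780 on the combination arrays and 7668 to 8541 on the vehicle arrays, and brown fat markers to 10866 to 11949 on the combination arrays and 9381 to 10588 on the vehicle arrays. With the skeletal muscle score in the fit the log2 difference was 0.87 on A and 1.41 on B, and with the fat cell score it was 0.98 on A and 1.70 on B. The brown fat sum was mostly Cox8b. The brown fat score was -0.5, 0.997 and 1.468 on combination arrays 1, 2 and 3, against -0.77, -0.776 and -0.172 on the vehicle arrays. The part of the brown fat markers was not tested. Of the PPAR target list 6 of 24 rose and 0 fell, beside 0.155% of all probe sets passing in either direction, and the median log2 difference was 0.70 against -0.003 over all probe sets. The 6 were the 5 genes of the sedentary comparison and Cpt1a, a carnitine palmitoyltransferase that lets fatty acids into mitochondria (1.45, adjusted p = 0.0181). With the fat cell marker score in the fit 3 of the 24 rose.

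**Figure D2:**
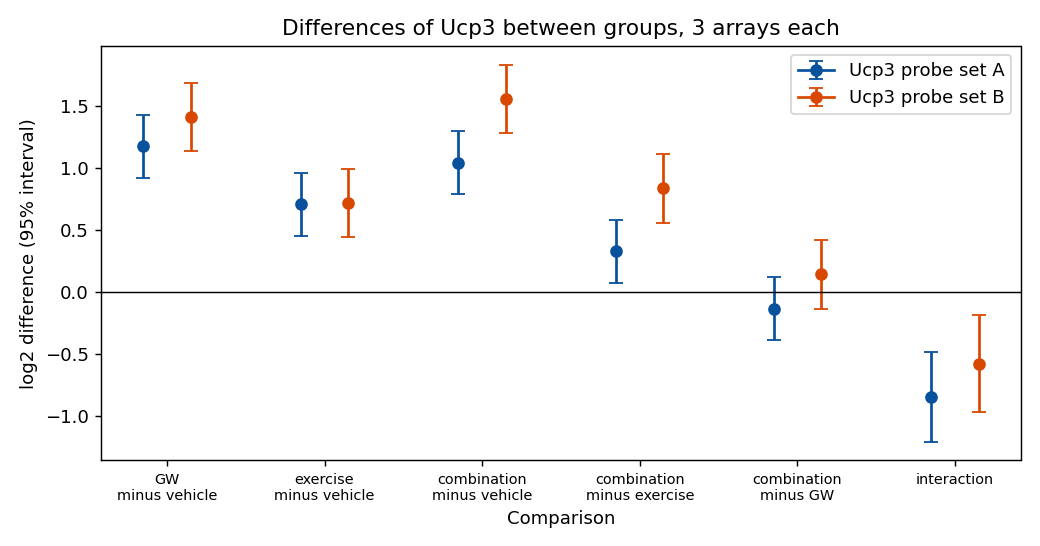
Log2 difference of Ucp3 with its 95% interval from the limma fit, for probe sets A and B, in each comparison and for the interaction. The comparisons with vehicle lie above 0, combination minus GW spans 0 on both probe sets, and the interaction lies below 0 at -0.84 on A and -0.57 on B.

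In trained mice the drug came with a smaller Ucp3 difference than in sedentary mice. Combination exceeded exercise by 0.33 ± 0.12 on the log2 scale on A, or 1.26-fold (95% interval 1.05 to 1.5), and by 0.84 ± 0.13 on B, or 1.79-fold (1.48 to 2.17). The lowest combination array was above the highest exercise array on both probe sets, as held for 7.58% of all probe sets. The interval on A included 0 without exercise array 3, at 0.27 (-0.01 to 0.56), and with a fat cell marker score in the fit, at 0.28 (-0.07 to 0.62). The summed signal of the fat cell markers measured, 8 of 10, ran from 8574 to 17780 on the combination arrays, against 7969 to 9289 on the exercise arrays. Combination arrays 2 and 3 held the high values, at 14902 and 17780, and 1 of the 8 markers, Lep, was at or below background. On B the log2 difference with this score in the fit was 0.97 (0.61 to 1.33).

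The PPAR target list in trained mice had 4 of 24 genes that rose and 0 that fell, beside 0.162% of all probe sets passing in either direction. With the fat cell marker score in the fit 2 of the 24 rose. All 24 log2 differences were above 0, as were 48.7% of those of all probe sets, and the median was 0.30. Those that rose were Slc27a1 (1.55, adjusted p = 0.000206), Cpt1a (1.46, adjusted p = 0.0169), Acadl (1.03, adjusted p = 0.000206) and Acaa2 (0.62, adjusted p = 0.00456). Fabp3 differed by 0.38 (adjusted p = 0.34), Mlycd by 0.45 (adjusted p = 0.11) and Pdk4 by 0.30 (adjusted p = 0.751). Slc27a1 had signals of 364.3, 430.9 and 442.0 in combination muscle, against 121.6, 145.8 and 156.7 in exercise muscle. Its log2 difference by drug was thus 1.55 in trained and 1.53 in sedentary mice, where that of Ucp3 was 0.33 in trained and 1.18 in sedentary mice on A, and 0.84 in trained and 1.41 in sedentary mice on B.

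**Figure D3:**
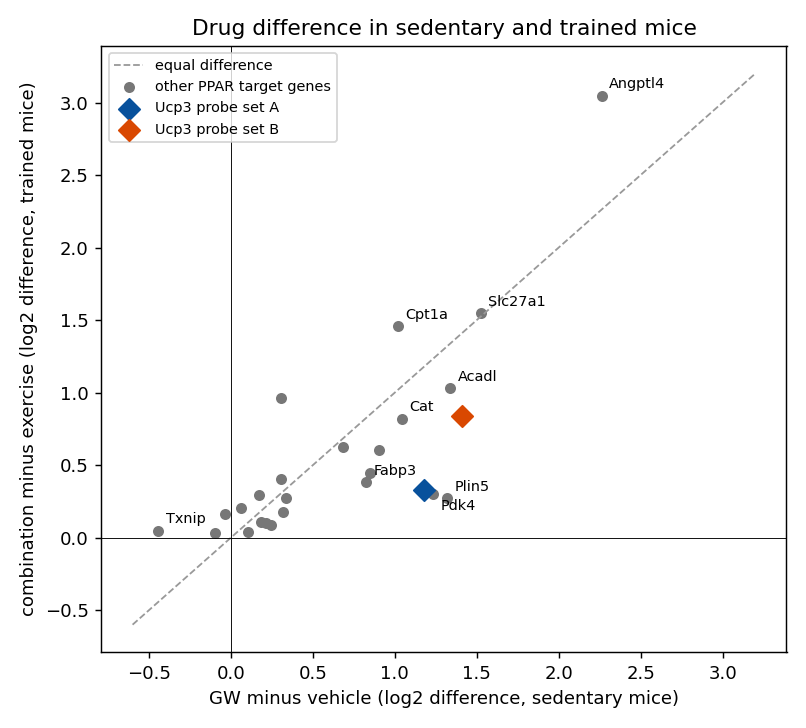
Log2 difference by drug in trained mice (combination minus exercise, vertical axis) against that in sedentary mice (GW minus vehicle, horizontal axis) for both Ucp3 probe sets and the 24 PPAR target genes tested, with the line of equality. Both Ucp3 probe sets, Pdk4 and Plin5 lie below the line, and Slc27a1 lies on it within its error.

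The interaction, meaning combination minus exercise less GW minus vehicle, was -0.84 ± 0.17 for Ucp3 A (95% interval -1.20 to -0.48) and -0.57 ± 0.18 for B (-0.97 to -0.18), on the log2 scale. These intervals are not adjusted for the number of probe sets. Of all probe sets, 0 passed in the interaction by limma (0%), and 922 had an unadjusted p under 0.05. Without GW array 1 the interaction was -0.75 on A and -0.43 on B, and without GW array 2 it was -0.96 and -0.70. With the skeletal muscle marker score in the fit it was -0.61 on A and -0.38 on B (-0.79 to 0.03). In the PPAR target list 10 of 24 genes had an interaction above 0, with a median of -0.07 against -0.01 over all probe sets. Plin5, a lipid droplet protein of oxidative tissues, had -1.05 (adjusted p = 0.729), Pdk4 -0.93 (adjusted p = 0.707) and Fabp3 -0.44, and 0 of the 24 passed, with 6 at an unadjusted p under 0.05.

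Between the groups that both received the drug, Ucp3 overlapped on both probe sets. Combination minus GW was -0.13 ± 0.12 on A (95% interval -0.39 to 0.12) and 0.14 ± 0.13 on B (-0.13 to 0.42), on the log2 scale. The intervals still allow a combination signal up to 1.34-fold that of GW on B. Without GW array 1 the difference on B was 0.29 (0.04 to 0.54), and on A it was -0.04. Of all probe sets 0 passed by limma (0%), with 781 at an unadjusted p under 0.05, and 5.13% had every combination array above every GW array. In the PPAR target list 0 of 24 passed, with 6 at an unadjusted p under 0.05 and a median log2 difference of 0.15.

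Other carriers of the family were set beside Ucp3. Of 7 listed relatives, which are Ucp1, the brain carriers Slc25a14 and Slc25a27, the kidney mitochondrial carrier Slc25a30 and the ADP/ATP carriers Slc25a4, Slc25a5 and Slc25a31, 5 had a probe set and 4 were tested. In every comparison 0 of the 4 passed in limma, with 1 or 2 at an unadjusted p under 0.05 and medians between -0.18 and 0.25 on the log2 scale. Of all probe sets 0% to 0.162% passed in a comparison, and 0 of 4 is close to that share. At an unadjusted p under 0.05 there were 781 to 1417 of all 13575. Ucp1 lay below the filter. Its signals were 3.40, 22.0 and 86.6 on the combination arrays, 10.4, 2.25 and 4.47 on the GW arrays, 27.4, 33.8 and 22.6 on the exercise arrays, and 5.72, 9.37 and 14.7 on the vehicle arrays. Most were at or near the background of 23.5, with 1 combination array well above it, and the same array had the highest fat cell marker sum. The signals of Slc25a30 were 311.7, 124.5 and 130.5 on the combination arrays, against 335.1, 278.4 and 343.8 on the exercise arrays, with a log2 difference of -0.89 ± 0.28 (adjusted p = 0.359). On this probe set, the highest of 5, combination arrays 2 and 3 were low and array 1 lay among the exercise arrays. On the second probe set every combination array (157.6, 110.8 and 116.8) lay below the exercise arrays (209.3, 239.1 and 223.8). Its log2 difference was -0.82 ± 0.17 (adjusted p = 0.0771). The third did not overlap either, at -0.975 ± 0.27 (adjusted p = 0.261), and the remaining ones lay below the filter.

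Acyl-CoA thioesterases release free fatty acids from coenzyme A, and the mitochondrial Acot2 has been placed in a pathway with Ucp3 that exports fatty acid anions. Of 12 listed, 11 had a probe set, 7 were tested and 0 passed in any comparison, beside at most 0.162% of all probe sets. At an unadjusted p under 0.05 there was at most 1 in a comparison. The list medians lay between -0.14 and 0.11 on the log2 scale. Acot2 had signals of 46.1, 71.6 and 67.6 in combination muscle, 44.3, 46.2 and 78.5 in GW muscle, 58.9, 27.2 and 45.6 in exercise muscle, and 2.70, 17.0 and 32.4 in vehicle muscle. The vehicle values were near background, and the log2 differences from vehicle were 2.41 for combination (adjusted p = 0.227), 2.25 for GW (adjusted p = 0.555) and 1.87 for exercise (adjusted p = 0.371). Mitochondrial antioxidant genes were listed because uncoupling is linked to the control of reactive oxygen species. Of the 12 listed 11 were tested and 0 passed in any comparison, beside the same share of all probe sets. At most 2 had an unadjusted p under 0.05. Cat, the peroxide-degrading catalase, differed by 1.05 in GW against vehicle (adjusted p = 0.138).

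Of 23 listed regulators of Ucp3 and its pathway, 17 were tested and 0 passed in any comparison, beside at most 0.162% of all probe sets. With so small a share, 0 of 17 does not show that they were unchanged. At an unadjusted p under 0.05 there were at most 3, beside 781 to 1417 of all 13575. Ppard, the receptor of GW1516, lay below the filter with mean signals of 2.44 in combination, 3.96 in GW, 4.04 in exercise and 2.31 in vehicle muscle, all under the background. Its level was therefore not measurable with this probe set. Ppargc1a, the coactivator that is raised by endurance training, averaged 477.3 in combination, 604.2 in GW, 534.4 in exercise and 532.9 in vehicle muscle. Array 1 raised the means of GW (917.8, then 425.7 and 469.2) and vehicle (728, then 434.6 and 436). On this probe set, the highest of 5, the log2 difference from vehicle was 0.137 ± 0.245 in GW (adjusted p = 0.941). In exercise it was 0.045 ± 0.245 (adjusted p = 0.965). The log2 difference of Foxo1, a fasting-responsive transcription factor, was 0.59 in GW against vehicle (adjusted p = 0.35) and 0.63 in combination against exercise (adjusted p = 0.145). Ppara differed by -1.03 in exercise against vehicle (adjusted p = 0.375).

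The 8 genes most like Ucp3 A over the 12 arrays, by Pearson r of log2 signals among 7939 genes, each represented by its probe set of highest mean signal, were Fabp3 (0.951), Pdk4 (0.926), Mlycd (0.919), Gucy1a1 (0.899), Acaa2 (0.882), Ldb3 (0.878), Ddost (0.876) and Acadl (0.875). The median r over all these genes was -0.03 and the 95th percentile 0.541. The points share pools, and group differences enter r. Within groups, after group means were removed, r was 0.878 for Ddost, a subunit of the protein glycosylation complex, 0.794 for Pdk4, 0.712 for Ldb3, a Z-disc protein, and 0.707 for Fabp3. It was 0.531 for Acaa2, 0.387 for Gucy1a1, a guanylate cyclase subunit, 0.154 for Acadl and -0.01 for Mlycd. The likeness of Acadl and Mlycd was thus mostly one of group means. Against probe set B, Acaa2 had the highest r of the 8, 0.963. Acaa2 had 3 probe sets, and their log2 differences between GW and vehicle were 0.68 for the one used, 1.03 (adjusted p = 0.0226) and 0.26 (adjusted p = 0.877). The second probe sets of Gucy1a1 and Acadl lay below the filter.

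**Figure D4:**
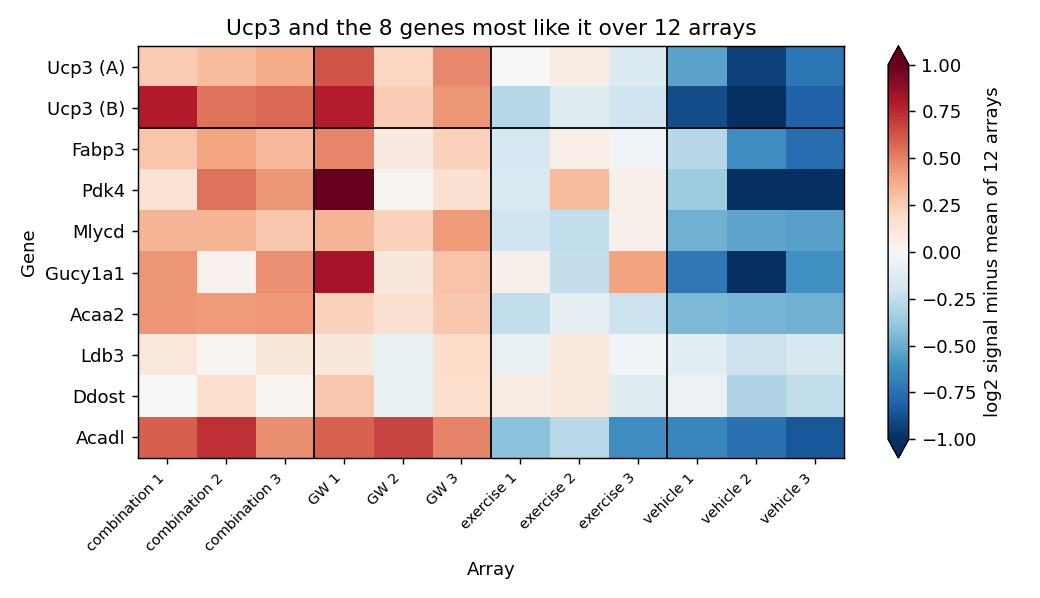
Log2 signal of both Ucp3 probe sets and of the 8 genes most like probe set A, as the deviation from each gene's mean over the 12 arrays (colour scale), with arrays in columns by group and genes in rows. Vehicle arrays are lowest in every row but that of Ddost, and GW array 1 is the highest for Ucp3 A, Fabp3, Pdk4, Gucy1a1 and Ddost.

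Pdk4 had the array order of Ucp3 A within the GW group and within the vehicle group, but not within the combination or exercise group. Its signals were 2932, 3876 and 3604 on the combination arrays, 5335, 2714 and 2954 on the GW arrays, 2395, 3310 and 2750 on the exercise arrays, and 2074, 1229 and 1284 on the vehicle arrays. GW array 1 was the highest of all 12 and vehicle array 1 the highest of its group, as for Ucp3 A. Fabp3 averaged 4683 ± 193.9 in combination, 4508 ± 650 in GW, 3603 ± 300 in exercise and 2554 ± 442 in vehicle muscle (SD, n = 3 each). It had the same order of groups as Ucp3 B, with combination and GW overlapping. The promoters of 7 of these 8 genes, all but Acaa2, were matched in the RefSeq table, and of their 9 windows 0 held AGGTCA and 6 held CANNTG. Of all 32851 promoters 16.3% held AGGTCA and 72.3% held CANNTG, so nothing is read from these counts.

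The genes that flank Ucp3 and Ucp2 on chromosome 7 were set beside them. The 4 nearest protein-coding genes on each side with a probe set were Lipt2, Kcne3, Ppme1 and C2cd3 before Ucp3, and Dnajb13, Mrpl48, Rab6a and Plekhb1 beyond Ucp2. Of these 6 passed the filter on signal, and 0 of the 6 passed the test in any comparison, beside at most 0.162% of all probe sets. C2cd3, a centriole gene whose end lies 2.8 kb from Ucp3, had signals of 115.8, 131.8 and 179.3 in combination muscle, 151.7, 79.5 and 110.1 in GW muscle, 86.9, 53.5 and 88.6 in exercise muscle, and 64.4, 65.2 and 53.6 in vehicle muscle. Its combination and GW arrays were all above the vehicle arrays, and the log2 difference from vehicle was 1.20 ± 0.27 in combination (adjusted p = 0.13) and 0.85 ± 0.27 in GW (adjusted p = 0.6). Dnajb13, on the far side of Ucp2, lay below the filter, with 23.6, 30.8 and 32.1 in combination muscle and 2.39 to 10.7 on all other arrays.

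**Figure D5:**
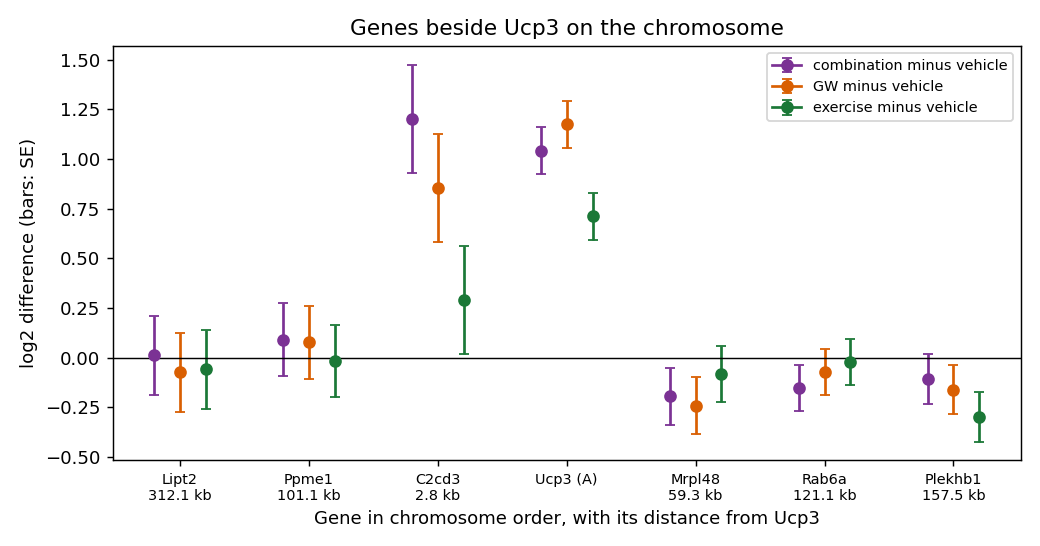
Log2 difference from vehicle in combination, GW and exercise muscle for Ucp3 probe set A and its neighbours on the chromosome that passed the filter, ordered along the chromosome, with SE bars. Ucp3 and C2cd3 are the genes above 0 in all 3 comparisons by over 0.25, and the others lie between -0.30 and 0.09.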

How the data were processed

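Biotin-labelled quadriceps RNA was hybridised to expression arrays, and the authors made signal intensities with MAS5, per the submitters' processing notes, which give no version in the form used here. The deposited intensities of 12 arrays were put on a log2 scale as they stood, without a pseudocount. Leaving aside 64 control probe sets, the upper 60% by mean log2 signal (13575, mean signal above 28.4) were fitted with the 4 groups in limma 3.58.1 (R 4.3.3), with 8 residual degrees of freedom and an intensity trend in the moderated variances. Tests were two-sided, adjusted by Benjamini-Hochberg over all probe sets tested, with a threshold of 0.05. The procedure was tested on simulated data.

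The members and gene lists were chosen with earlier results of these data known, so counts and p-values of the lists are no independent tests. The plan was to name up to 4 genes a list in each comparison. Those past the threshold came first, then those with the smallest p. In the PPAR target list more were named in some comparisons. Plin5 was named in the interaction though other genes of the list, such as Mlycd, had a smaller p. Per-array values of Slc27a1, Acot2, C2cd3 and Dnajb13 were chosen after their values were seen. A gene was represented by its probe set of highest mean signal. Of all probe sets, 20393 had 1 symbol in the array annotation, 691 several and 1606 none. Replicates are pools of 3 mice, so p-values and intervals measure the spread between pools, and 3 arrays a group limit the precision. Alternatives covered normalization, pseudocount, filter, moderation, array weights, groups fitted, array number as a block, marker scores and leaving out each array. Detection calls and array images were not used here.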

Additional observations from a re-analysis of the deposited data

How the results depend on the processing

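Ucp3 kept its sign in all comparisons under the 25 alternatives run (24 for the interaction, which a fit of only the groups compared cannot give). Many of these could not have changed it. A change of filter, trend, prior, array block or groups fitted leaves a log2 difference as it is and alters only its SE. The same holds for leaving out an array of a group that is not compared. With the skeletal muscle marker score in the fit, added after the data were seen, values on the log2 scale moved by more than the spread between arrays to 0.425 on A and 0.479 on B for exercise against vehicle, to 0.869 on A for combination against vehicle, and to -0.61 on A and -0.378 on B for the interaction. The cause was not tested. Over all alternatives, GW against vehicle ranged from 1.05 to 1.29 on A and from 1.27 to 1.54 on B, and combination against exercise from 0.27 to 0.44 on A and from 0.76 to 0.97 on B.

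Counts of probe sets called moved more. GW against vehicle, with 13, gave 7 without the intensity trend, 20 with array weights and 7 with only the groups compared. Exercise against vehicle, with 2, gave 0 with quantile or cyclic loess normalization, without the trend, with a robust prior and with macrophage or skeletal muscle scores, 20 with array weights, 33 with only the groups compared, 26 with the fat cell score and 0 to 20 with an array left out. Combination against vehicle, with 21, gave 7 without the trend, 94 with array weights, 36 with the macrophage score, 13 with the skeletal muscle score and 9 to 52 with an array left out. Combination against exercise, with 22, gave 4 without the trend, 39 with array weights, 40 with only the groups compared, 6 with the fat cell score, 13 with the skeletal muscle score and 8 to 83 with an array left out, the highest without combination array 1. Combination against GW, with 0, gave 1 with array number as a block, 2 with the fat cell score, 2 with the skeletal muscle score and 0 to 35 with an array left out. The interaction, with 0, gave 1 with array weights, 1 with the block and 0 to 9 with an array left out.

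PPAR target genes that rose in GW against vehicle, 5, were 8 with array weights, 3 with only the groups compared and 4 to 8 with an array left out. In combination against vehicle, 6, they were 13 with array weights and 3 with the fat cell score. In combination against exercise, 4, they were 2 without the trend, 2 with the fat cell score and 7 with the macrophage score, and in exercise against vehicle, 0, they were 2 with array weights.

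Deviations from group means of same-numbered arrays of different groups had an r between -0.05 and 0.10 (median 0.014). For arrays with different numbers it lay between -0.08 and 0.06 (median -0.007). These values cannot show whether same-numbered arrays were processed together. Every group holds each array number, so a replicate block by array number cannot move the Ucp3 differences. With it, GW against vehicle was 1.18 on A and 1.41 on B, and only the SE could change. The SE went from 0.119 to 0.116 on A and from 0.13 to 0.123 on B. Alternatives planned for Ucp2 were not run, since 0 probe sets carry its symbol. Signals near the background of 23.5, such as those of Ucp1, Acot2 in vehicle muscle and Ppard, limit what can be said of low genes.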
